A study of Ovis aries with 23 samples.

Results

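The genes described here are the nervous system genes of the sheep pars tuberalis (PT), the thin sheet of pituitary tissue under the median eminence that reads the melatonin signal of day length. They were taken from the study's table of differentially expressed (DE) genes and their Gene Ontology categories. Members have an entry in the nervous system category and none in the categories for endoplasmic reticulum, Golgi, and transport or for circadian rhythm, and 11 genes are set aside by name. Of the 1324 genes in that table, 42 were in the category, 2 were removed by name (NCAN and CALB1), and 40 remained, of 25197 genes counted in each sample. The animals were castrate male Scottish blackface sheep, kept in short photoperiods (SPs, with 8 hr light and 16 hr dark) or transferred to long ones (LPs, with 16 hr light and 8 hr dark). RNA of dissected PT was sequenced from 5 SP samples and from 6 samples each at LP days 1, 7, and 28, 23 samples in all. The labels give every sample the same breed, tissue, and castrate state, and do not say whether each sample is a separate animal, so p-values measure the spread between these samples.

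Nervous system genes of this kind code for the proteins with which growing axons read their surroundings, attach to other cells, and build synapses. Netrins and semaphorins are secreted or membrane-bound cues, DCC and the plexins are their receptors, and contactins and neurofascin hold axons to glia at the node of Ranvier. Endocrine cells use many of the same proteins for adhesion, cell shape, and exocytosis. The PT itself holds thyrotrophs and folliculostellate cells and borders on tanycytes and nerve terminals of the median eminence. In bulk tissue, fewer cells of a type and less RNA per cell cannot be told apart.

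Of the 40 members, 22 are on the study's lists of DE genes for these samples, with 18 for LP day 28, 10 for LP day 7, and 0 for LP day 1. The other 18 entered the category through experiment 4 of the study, whose samples were not analysed here. SP-to-LP differences of the 22 listed members were thus used to choose them. They are given as a description, without a test, and the same holds for any count that includes them. The 18 members listed from experiment 4 alone were not chosen by these samples, although being absent from the lists for these samples makes a call less likely. A total of 19 members have no entry in any other category, and 3 (RSPH4A, SPEF2, and DNAH5) carry terms for the axoneme, the core of the cilium.

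Total counts per sample lay between 307952 in LP day 1 sample 4 and 4413929, with a median of 3332320. Levels are given as CPM, the counts of a gene scaled to a common library size, and 3 counts equalled 8.90 CPM in that shallowest sample and no more than 1.52 CPM elsewhere, a limit that covers counting error only. LP day 1 samples 3 and 4 were the most alike (chi-square per gene 1.15, where 1 is counting noise, against 1.81 for the next pair), and were kept as 2 samples. Both pairs include the shallow LP day 1 sample 4, whose low depth draws the value toward 1. All 5 PT thyrotroph markers (TSHB, CGA, MTNR1A, CHGA, and EYA3) were present in each group, with a summed level of 6727 to 15090 CPM over the 23 samples. MTNR1A was at 0 CPM in LP day 1 sample 4. CGA (3886 to 11560 CPM) and CHGA (793 to 4292 CPM) made up most of the sum. The paper also describes CHGA in pars distalis cells, so the sum does not measure thyrotroph content alone. The 8 paired markers of pars distalis endocrine cells had a summed level of 35060 to 272800 CPM. Its median was 125200 CPM on SPs and 64510, 95690, and 177100 CPM at LP days 1, 7, and 28, with overlapping ranges. PRL (prolactin) was the largest part of the sum in every sample. The paper describes prolactin as seasonally regulated, so the sum does not measure pars distalis content alone. Log2 fold changes at LP day 28 against SPs were 1.09 for PRL, 0.51 for POU1F1, and 0.43 for TBX19. They were 0.001 for GNRHR, -0.05 for GH1, -0.08 for POMC, -0.39 for LHB, and -0.76 for FSHB. The part of pars distalis content in the differences below was not tested, though a GH1 covariate was among the alternatives.

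SPs were set against the LP days in turn with the quasi-likelihood test of edgeR over all genes, and genes with a false discovery rate (FDR, Benjamini-Hochberg) under 0.05 were called DE. Log2 fold changes are given ± their standard error (SE). At LP day 1, 0 of 39 members tested were DE, against 0.00% of all genes, and 5 members had an unadjusted p under 0.05, against 3.33%. There, DESeq2, the tagwise exact test (in which every gene has its own dispersion), and limma with voom also gave 0, and the common exact test (in which all genes share a dispersion) gave 1 (NOV). At LP day 7, 3 of 39 were DE (CNTN1, CNTN2, and GLUL, all higher), against 0.266% of all genes in either direction, 0.193% higher and 0.0732% lower. At LP day 28, 6 of 39 were DE, with CNTN1, CNTN2, NFASC, NGFR, and SPTB higher and SPEF2 lower, against 0.670% of all genes in either direction, 0.422% higher and 0.248% lower. All of these genes are on the study's lists for these samples, so the counts are not independent evidence. With each sample left out in turn, CNTN1 kept both calls, and CNTN2, NFASC, and NGFR kept theirs at LP day 28. CNTN2 lost its call at LP day 7 without SP sample 2 or 4, and GLUL without SP sample 1, 2, or 4 or LP day 7 sample 1, 2, or 5. At LP day 28, SPTB kept its call only without LP day 28 sample 5, and SPEF2 only without SP sample 1, 2, or 5 or LP day 28 sample 2. Groups did not overlap for 8 members at LP day 7 and 5 at LP day 28, against 2.04% and 1.98% of all genes, and each of them was higher on LPs.

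The size of the differences grew with time on LPs among the listed members. Their median absolute log2 fold change went from 0.34 on LP day 1 through 0.59 on LP day 7 to 0.87 on LP day 28, where the median of all genes was 0.13, 0.18, and 0.18. The listing itself favours large values at LP days 7 and 28. Among the 18 members from experiment 4 alone it was 0.12, 0.21, and 0.31. PVALB was too low to be tested at LP days 7 and 28, and DCC at LP day 1.

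**Figure D1:**
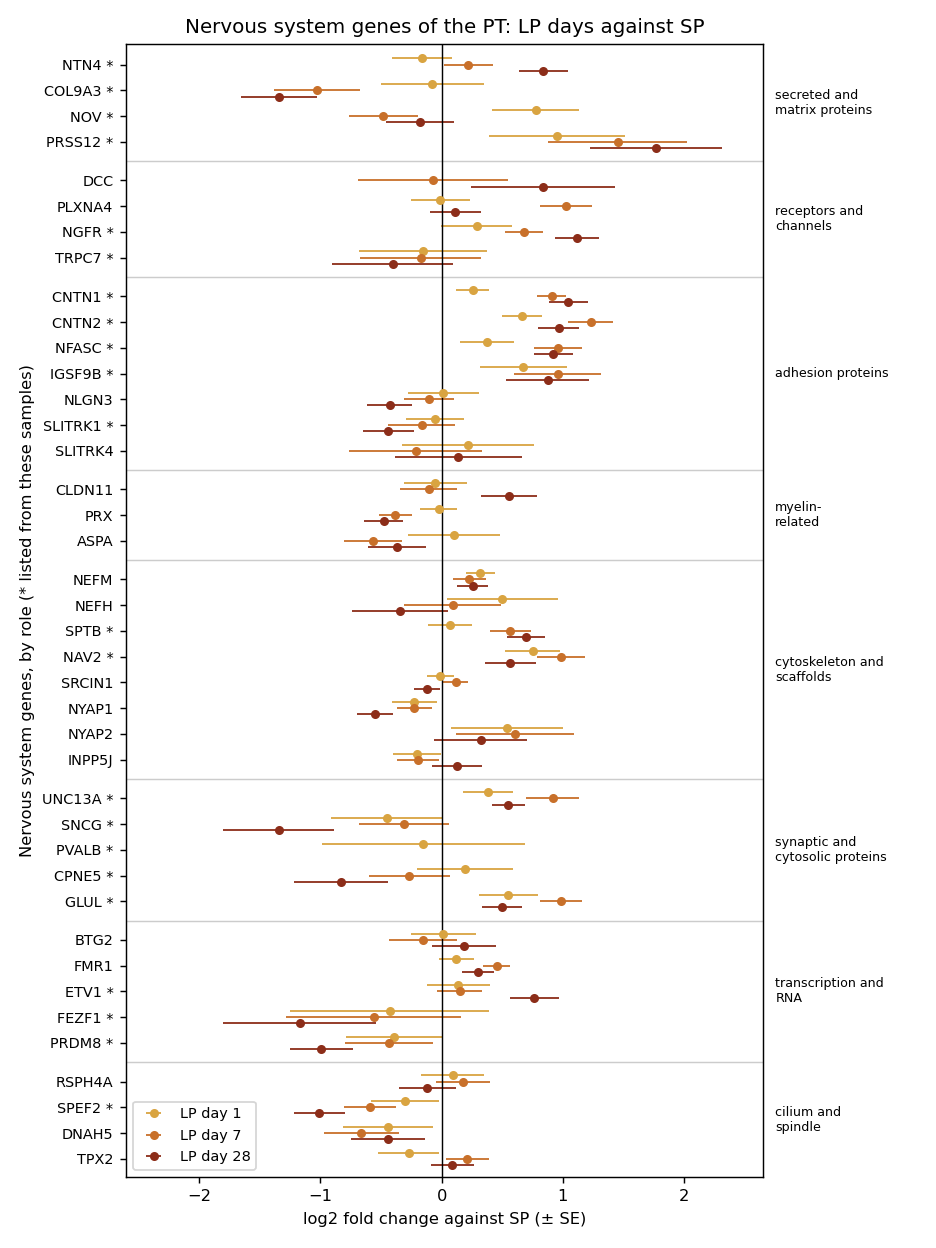
Log2 fold change against SPs (x axis, bars are standard errors) of the nervous system genes at LP days 1, 7, and 28, ordered by role (y axis), with an asterisk on the 22 genes listed from these samples. CNTN1, CNTN2, NFASC, and IGSF9B lie right of 0 at each LP day, COL9A3, SNCG, FEZF1, SPEF2, and PRDM8 lie left of 0, and PVALB and DCC lack the days at which they were not tested.

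Adhesion proteins of axons included 3 of the members called at LP day 28, all of them listed from these samples. CNTN1 (contactin-1, ENSOARG00000019884) is a lipid-anchored immunoglobulin protein that joins axon and glia beside the node. SP samples 1 to 5 had 138.5, 139, 172, 133, and 165 CPM of CNTN1. The lowest, median, and highest of the 6 samples on LP day 1 were 149.5, 162, and 244 CPM. They were 229, 280, and 361 CPM on LP day 7 and 221, 302, and 445.5 CPM on LP day 28. Every sample of LP days 7 and 28 thus lay above every SP sample, while LP day 1 overlapped with SPs. Log2 fold changes of CNTN1 against SPs were 0.26 ± 0.13 (SE) at LP day 1, 0.91 ± 0.12 (SE) at LP day 7, and 1.04 ± 0.16 (SE) at LP day 28.

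CNTN2 (contactin-2), which guides growing axons and clusters potassium channels next to the node, had 39.2, 31.5, 38.4, 37.6, and 57.8 CPM in SP samples 1 to 5. Its LP samples ran from 52.5 to 79.0 CPM at LP day 1 (median 63.4), from 68.4 to 128 CPM at LP day 7 (median 88.7), and from 61.5 to 98.9 CPM at LP day 28 (median 79.0). At LP day 1 only SP sample 5 reached into the LP range, and at the later days the groups were apart. Log2 fold changes were 0.66 ± 0.16 (SE), 1.23 ± 0.19 (SE), and 0.97 ± 0.17 (SE) at LP days 1, 7, and 28.

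NFASC (neurofascin), an L1-family protein of the axon initial segment and node, had 70.7, 42.3, 75.9, 46.7, and 71.9 CPM in SP samples 1 to 5. LP day 1 samples spread from 44.5 to 127 CPM (median 72.1). At LP day 7 NFASC ran from 84.4 to 160 CPM (median 115), and at LP day 28 from 95.8 to 152 CPM (median 115). The later LP samples were all above the highest SP sample. The log2 fold change was 0.96 ± 0.19 (SE) at LP day 7 and 0.92 ± 0.16 (SE) at LP day 28. Levels of NFASC also differed between even and odd sample numbers, as given further on.

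The other adhesion proteins act at the synapse. IGSF9B, which organizes inhibitory synapses, was low, with 2.31 to 7.15 CPM on SPs and 4.04 to 9.74 CPM at LP day 28 (log2 fold change 0.87 ± 0.34 SE), and SP sample 1 at 7.15 CPM lay within the LP range. SLITRK1, a leucine-rich-repeat protein of synapses, had 14.6 to 39.2 CPM on SPs and 15.9 to 24.0 CPM at LP day 28 (log2 fold change -0.44 ± 0.21 SE). NLGN3 (neuroligin-3) and SLITRK4, both from experiment 4 alone, did not pass the test at any LP day. NLGN3 had 43.3 to 98.0 CPM on SPs and 48.7 to 64.9 CPM at LP day 28, with a log2 fold change of -0.43 ± 0.18 (SE, edgeR FDR 0.306). SLITRK4 stayed at or below 5.64 CPM in every sample.

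**Figure D2:**
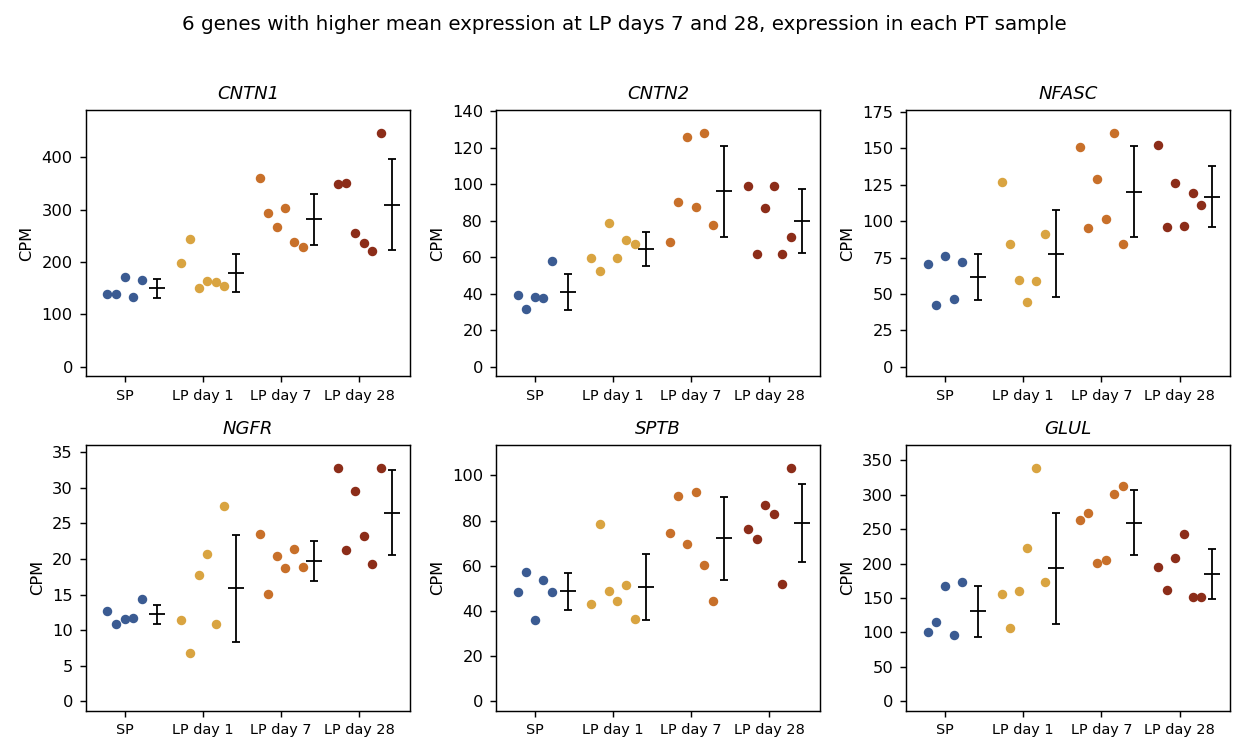
CPM in each sample (points, y axis) of CNTN1, CNTN2, NFASC, NGFR, SPTB, and GLUL in the SP, LP day 1, LP day 7, and LP day 28 groups (x axis), with the mean and SD beside each group. CNTN1, CNTN2, NFASC, and NGFR show no overlap between SPs and LP days 7 and 28, SPTB overlaps on both days, and GLUL is apart from SPs at LP day 7 and overlaps with them at LP day 28.

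Receptors included NGFR, the low-affinity neurotrophin receptor. SP samples 1 to 5 had 12.7, 10.8, 11.5, 11.7, and 14.4 CPM. LP day 1 samples went from 6.87 to 27.4 CPM (median 14.6), LP day 7 from 15.1 to 23.5 CPM (median 19.7), and LP day 28 from 19.4 to 32.8 CPM (median 26.4). The group mean thus stood at 12.2 ± 1.38 CPM (SD, n = 5) on SPs and 26.5 ± 5.96 CPM (SD, n = 6) at LP day 28, which is a log2 fold change of 1.12 ± 0.18 (SE), and was intermediate at LP day 7 (0.68 ± 0.16 SE). DCC, the netrin-1 receptor, was close to the counting limit, with 0 to 12 counts in any sample. TRPC7, a cation channel, ranged from 3.46 to 27.1 CPM on SPs and from 3.39 to 17.9 CPM at LP day 28 (log2 fold change -0.40 ± 0.50 SE).

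PLXNA4 (plexin-A4, a semaphorin receptor) comes from experiment 4 alone, and its levels singled out LP day 7. SP samples 1 to 5 had 6.89, 5.76, 6.92, 5.51, and 8.18 CPM. LP day 1 samples lay between 5.31 and 7.65 CPM (median 6.52) and LP day 28 samples between 6.29 and 7.87 CPM (median 7.23). At LP day 7 the lowest, median, and highest values were 8.31, 14.5, and 16.9 CPM, so that all 6 samples lay above each of the other 17. The lowest of these, LP day 7 sample 2 at 8.31 CPM, stood close to SP sample 5 at 8.18 CPM.
The log2 fold change of LP day 7 over SPs was 1.03 ± 0.21 (SE, edgeR FDR 0.0563), which missed the threshold. Over LP day 1 it was 1.03 ± 0.21 (SE, edgeR FDR 0.202), and from LP day 7 to LP day 28 it was -0.91 ± 0.19 (SE, edgeR FDR 0.128). DESeq2, both exact tests, a single fit of all groups, and fits with a covariate for even sample numbers or for GH1 called PLXNA4 at LP day 7 against SPs, as did the fits without LP day 7 sample 2 or 6, and over all alternatives its FDR went from 0.00216 to 0.221.

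Secreted and matrix proteins moved in different ways. NTN4 (netrin-4, a laminin-related protein of basement membranes) had 18.8, 10.2, 11.8, 10.7, and 9.59 CPM in SP samples 1 to 5, and SP sample 1 stood apart from the other 4. NTN4 went from 7.65 to 15.0 CPM at LP day 1 (median 11.1), from 11.9 to 17.4 CPM at LP day 7 (median 14.1), and from 19.9 to 29.6 CPM at LP day 28 (median 20.8). All LP day 28 samples were above all the others. Against SPs the log2 fold change was -0.16 ± 0.25 (SE) at LP day 1, 0.22 ± 0.20 (SE) at LP day 7, and 0.84 ± 0.20 (SE) at LP day 28.

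PRSS12 (neurotrypsin, a protease that cleaves agrin at synapses) had the highest log2 fold change of the members at LP day 28, 1.77 ± 0.54 (SE). It rested on 1 to 5 counts in each SP sample and 1 to 23 counts in each LP day 28 sample. NOV, a matrix-associated signalling protein, had 20.1, 34.2, 47.6, 20.1, and 75.3 CPM in SP samples 1 to 5, 27.7 to 116 CPM at LP day 1, 23.2 to 36.8 CPM at LP day 7, and 28.3 to 51.3 CPM at LP day 28. Its mean of 71.4 ± 33.6 CPM at LP day 1 (SD, n = 6) was above 28.4 ± 4.93 CPM at LP day 7 (SD, n = 6). The log2 fold change between these days was -1.26 ± 0.26 (SE, edgeR FDR 0.202), and DESeq2 and both exact tests called it.

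**Figure D3:**
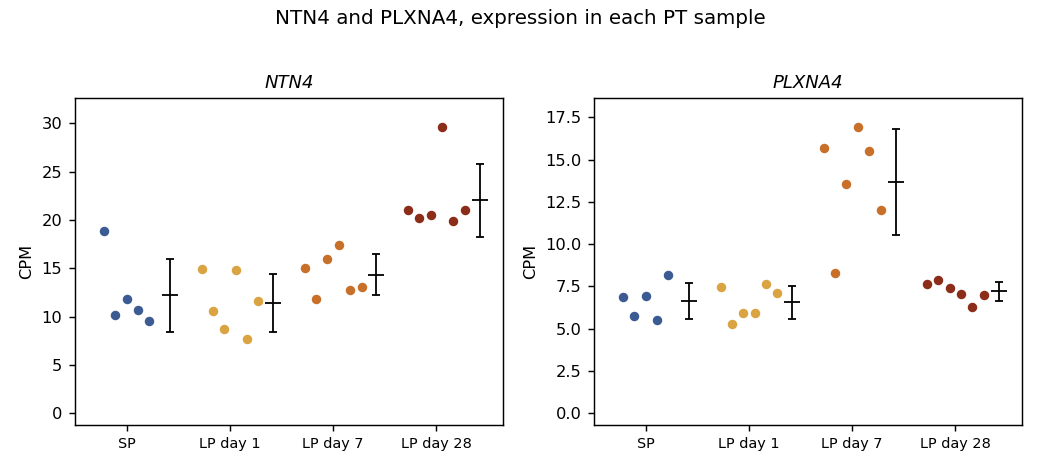
CPM in each sample (points, y axis) of NTN4 and PLXNA4 in the SP, LP day 1, LP day 7, and LP day 28 groups (x axis), with the mean and SD beside each group. NTN4 at LP day 28 runs from 19.9 to 29.6 CPM and lies above every other sample, and PLXNA4 at LP day 7 runs from 8.31 to 16.9 CPM and lies above every other sample.

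Cytoskeletal and scaffold proteins held 2 listed members. SPTB (beta-spectrin, of the membrane skeleton) had 48.2, 57.2, 36.1, 53.8, and 48.2 CPM in SP samples 1 to 5, and 51.8 to 103 CPM (median 79.5) at LP day 28. LP day 28 sample 5, at 51.8 CPM, was the only LP day 28 sample within the SP range. Its log2 fold change over SPs by then was 0.70 ± 0.15 (SE). NAV2, a microtubule-associated protein of growing neurites, had 9.48 to 14.9 CPM on SPs and 16.3 to 30.7 CPM at LP day 7, with no overlap, while the range on LP day 28 was 12.1 to 24.4 CPM. NAV2 differed from SPs by a log2 fold change of 0.75 ± 0.22 (SE) at LP day 1, 0.99 ± 0.20 (SE) at LP day 7, and 0.57 ± 0.21 (SE) at LP day 28.

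The neurofilament genes are classical axon markers. NEFM (neurofilament medium chain) was present at 260 to 368 CPM on SPs and 294 to 470 CPM at LP day 28, with a log2 fold change of 0.26 ± 0.13 (SE, edgeR FDR 0.386). NEFH (neurofilament heavy chain) ranged from 4.74 to 20.2 CPM on SPs and from 2.34 to 11.4 CPM at LP day 28, with a log2 fold change of -0.35 ± 0.40 (SE, edgeR FDR 0.750). SRCIN1 (a regulator of Src kinase), NYAP1 and NYAP2 (adaptors of phosphoinositide signalling), and INPP5J (an inositol phosphatase) also did not pass the test at any LP day. Of these, NYAP1 was closest at LP day 28, at 75.3 to 129 CPM on SPs and 49.3 to 76.8 CPM on LPs (log2 fold change -0.55 ± 0.14 SE, edgeR FDR 0.0922). DESeq2 and the tagwise exact test called NYAP1 there. NYAP2 did not exceed 4.81 CPM in any sample.

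Synaptic and cytosolic proteins included GLUL (glutamine synthetase, the enzyme with which astrocytes clear glutamate). SP samples 1 to 5 had 101, 115.5, 167, 96.2, and 173 CPM of GLUL. LP samples went from 107 to 339 CPM at LP day 1 (median 167), from 200 to 312 CPM at LP day 7 (median 268), and from 151 to 243 CPM at LP day 28 (median 178). At LP day 7 all samples were above all SP samples, and at LP day 28 the groups overlapped. Log2 fold changes against SPs were 0.55 ± 0.24 (SE), 0.98 ± 0.17 (SE), and 0.50 ± 0.17 (SE) at LP days 1, 7, and 28. UNC13A, which primes synaptic vesicles for release, had 33.6 to 42.5 CPM on SPs and a wide range of 35.7 to 103 CPM at LP day 7 (log2 fold change 0.92 ± 0.22 SE). Its LP day 28 samples lay between 41.0 and 65.5 CPM (log2 fold change 0.55 ± 0.14 SE).

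SNCG (gamma-synuclein), PVALB (parvalbumin, a calcium buffer), and CPNE5 (a calcium-dependent membrane-binding copine) had lower means at LP day 28 than on SPs. SNCG had 3.44, 12.2, 15.0, 3.89, and 15.5 CPM in SP samples 1 to 5 and 1.03 to 6.39 CPM (median 3.98) at LP day 28, for a log2 fold change of -1.34 ± 0.46 (SE). CPNE5 had 3.18, 5.08, 9.52, 3.24, and 9.59 CPM on SPs and 1.56 to 5.31 CPM at LP day 28 (log2 fold change -0.83 ± 0.39 SE). PVALB had 0, 6, 8, 0, and 15 counts in SP samples 1 to 5 and 0 to 5 counts at LP day 28. SP samples 1 and 4 were the lowest SP samples for all 3 genes.

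Transcription factors and RNA-binding proteins showed no call in either direction by edgeR's quasi-likelihood test, although DESeq2 called ETV1 and PRDM8 at LP day 28. ETV1, an ETS factor of neuronal differentiation, had 53.0 to 105.7 CPM on SPs and 76.0 to 198 CPM at LP day 28 (log2 fold change 0.76 ± 0.20 SE). PRDM8, a zinc-finger repressor of the developing forebrain, had 10.4 to 22.3 CPM on SPs and 4.83 to 11.3 CPM at LP day 28 (log2 fold change -0.99 ± 0.26 SE). FEZF1, a forebrain zinc-finger factor, had 3, 9, 23, 0, and 20 counts in SP samples 1 to 5 and 3 to 8 counts in each LP day 28 sample.
FMR1, which encodes an RNA-binding regulator of translation at synapses, and BTG2, an antiproliferative factor, come from experiment 4 alone. FMR1 had 52.5 to 71.3 CPM on SPs and 75.1 to 106.5 CPM at LP day 7, without overlap (log2 fold change 0.45 ± 0.11 SE, edgeR FDR 0.0874). BTG2 differed by 0.18 or less on the log2 scale at each LP day.

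Myelin-related members were all from experiment 4 alone and did not pass the test. PRX (periaxin, of Schwann cell myelin) had 24.8 to 30.5 CPM on SPs and 14.7 to 28.4 CPM at LP day 28, with a log2 fold change of -0.48 ± 0.16 (SE, edgeR FDR 0.202). CLDN11, the tight-junction protein of oligodendrocyte myelin, had 22.2 to 45.7 CPM on SPs and 35.0 to 67.4 CPM at LP day 28 (log2 fold change 0.56 ± 0.23 SE, edgeR FDR 0.284). ASPA, which breaks down N-acetylaspartate in oligodendrocytes, was at or below 18.9 CPM in every sample. The only paired oligodendrocyte marker, MBP, ranged from 18.5 to 118 CPM on SPs and from 22.8 to 62.4 CPM at LP day 28.

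The cilium genes are in the category through the axoneme, not through axons. SPEF2, needed for assembly of the ciliary and sperm axoneme, had 43.7, 31.5, 64.3, 73.2, and 40.4 CPM in SP samples 1 to 5. It went from 18.9 to 73.4 CPM at LP day 1 (median 39.8), from 25.8 to 52.0 CPM at LP day 7 (median 32.0), and from 15.2 to 34.6 CPM at LP day 28 (median 25.3). SP sample 2 and LP day 28 sample 2 overlapped. This gave a log2 fold change of -1.01 ± 0.21 (SE). The ependymal marker CCDC153 had 25.4 to 44.0 CPM on SPs and 15.98 to 26.0 CPM at LP day 28, with a log2 fold change of -0.77 ± 0.17 (SE, edgeR FDR 0.0504). The 4 paired tanycyte and ependymal markers, of 9, had a summed level of 863 to 1405 CPM on SPs and 848 to 1044 CPM at LP day 28. None was at 0 throughout a group. VIM made up most of this sum, with 773 to 1315 CPM on SPs and 793 to 984 CPM at LP day 28. The sum thus says little about the other markers, CCDC153 among them. The part of ependymal cell content in the SPEF2 difference was not tested. RSPH4A (a radial spoke protein) and DNAH5 (a dynein heavy chain of the outer arm) did not pass the test, with log2 fold changes at LP day 28 of -0.12 ± 0.23 (SE, edgeR FDR 0.863) and -0.44 ± 0.31 (SE, edgeR FDR 0.563). The spindle protein TPX2 differed by 0.09 ± 0.18 (SE, edgeR FDR 0.864).

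Listed members with higher levels on LPs had the same sign against SP samples 2, 3, and 5 as against SP samples 1 and 4. Most of those with lower levels did not. By an earlier analysis of these data, the listing behind the choice of members was closest to a fit of SP samples 2, 3, and 5, which leaves SP samples 1 and 4 as SP values that it may not have used. This was inferred and is not stated by the study. For the 9 members listed at LP day 28 with higher levels there, the median log2 fold change at LP day 28 was 0.96 against SP samples 2, 3, and 5 and 0.98 against SP samples 1 and 4, with the same sign in 9 of 9. Sizes still differed for some of them, with 1.19 and 0.50 for IGSF9B, 1.06 and 0.56 for NTN4, and 0.91 and 0.57 for ETV1. Calls differed too, since SP samples 2, 3, and 5 alone gave calls for CNTN1, COL9A3, NGFR, and NTN4 at LP day 28 and none at LP day 7, and SP samples 1 and 4 alone for CNTN1, CNTN2, GLUL, NFASC, and SPEF2 at LP day 28. For the 8 tested members listed at LP day 28 with lower levels, the median was -1.17 against SP samples 2, 3, and 5 and 0.09 against SP samples 1 and 4. The sign was the same in 3 of these 8 (COL9A3, PRDM8, and SPEF2). LP samples are shared by both values, and members were sorted as higher or lower by the fit of SP samples 2, 3, and 5. If the listing used those samples, it favours large values against them. The split thus cannot show which differences hold.

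COL9A3 (a chain of collagen IX, a matrix protein) is an example. SP samples 1 to 5 had 16.7, 45.7, 70.7, 24.0, and 73.1 CPM, and LP day 28 samples 13.1 to 25.9 CPM (median 16.4). LP day 28 differed by a log2 fold change of -1.80 ± 0.20 (SE) against SP samples 2, 3, and 5 and -0.16 ± 0.27 (SE) against SP samples 1 and 4. For SNCG the values were -1.85 ± 0.39 (SE) and 0.09 ± 0.58 (SE), and for FEZF1 they were -1.83 ± 0.44 (SE) and 1.63 ± 0.93 (SE). SPEF2 and PRDM8 behaved otherwise, with -0.86 and -1.21 for SPEF2 and -1.11 and -0.80 for PRDM8. Among members listed at LP day 7, 7 of 7 higher ones and 0 of 2 lower ones (COL9A3 and NOV) kept their sign.

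Over all 40 members, SP samples 1 and 4 were both below SP samples 2, 3, and 5 for 12 (30.0%), against 9.06% of all genes tested at LP day 28. These were ASPA, CLDN11, CNTN1, COL9A3, CPNE5, DNAH5, FEZF1, GLUL, NOV, PVALB, SLITRK1, and SNCG. Of them, only ASPA, CLDN11, and DNAH5 come from experiment 4 alone. The rest are listed from these samples, and a listing by SP samples 2, 3, and 5 would itself favour this order for members lower on LPs. The share is thus a description that the choice of members may have raised. SP samples 1 and 4 were both above the other SP samples for 3 members (7.5%), against 7.52% of all genes. Markers of nervous tissue followed this split in part. GFAP (of astrocytes) had 97.7, 243, 623, 208, and 476 CPM in SP samples 1 to 5, and STMN2 (of neurons) had 96.7, 163, 173, 134.5, and 234 CPM, both with SP samples 1 and 4 lowest. MBP (of oligodendrocytes) did not have this order, with 18.5, 19.98, 118, 37.9, and 49.4 CPM. At LP day 1, GFAP and COL9A3 were both highest in samples 1 and 5 (644 and 832 CPM of GFAP, 63.0 and 65.9 CPM of COL9A3) and lowest in sample 2 (47.8 and 7.185 CPM). The later days repeated this only in part. At LP day 7, GFAP and COL9A3 were both highest in sample 1 (534 and 33.35 CPM). GFAP was lowest that day in sample 4 (131 CPM), where COL9A3 was second highest (29.5 CPM). At LP day 28, GFAP was highest in sample 1 (416 CPM), where COL9A3 was second lowest (14.8 CPM). These values are for 1 member and 1 marker.
Few markers could be paired with a gene, 1 of 12 for neurons, 2 of 7 for astrocytes, 1 of 10 for oligodendrocytes, and 2 of 6 for Schwann cells, and none of the paired genes was at 0 throughout a group. Summed astrocyte markers ranged from 101 to 639 CPM on SPs and from 197 to 423.5 CPM at LP day 28, and neuron markers from 96.7 to 234 CPM and from 60.0 to 164.5 CPM. The part of nervous tissue content in these differences was not tested.

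**Figure D4:**
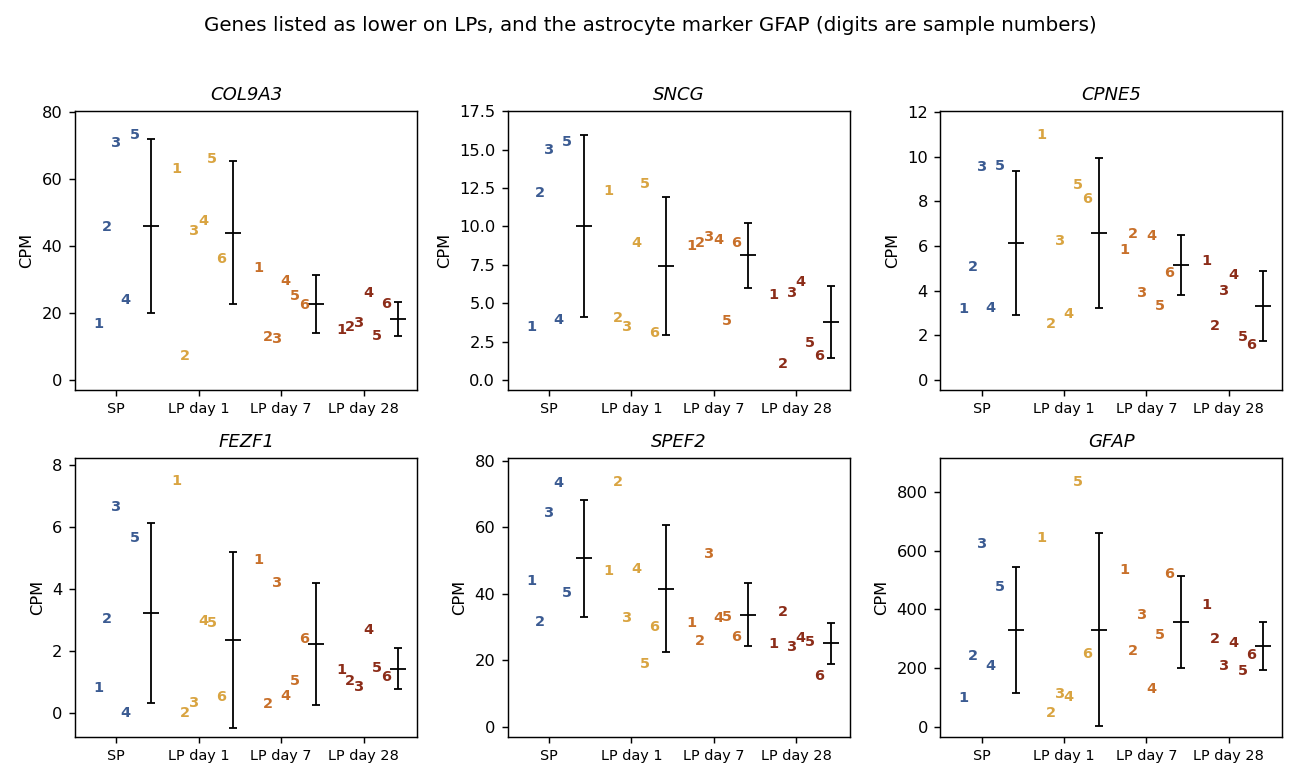
CPM in each sample (y axis) of COL9A3, SNCG, CPNE5, FEZF1, SPEF2, and the astrocyte marker GFAP in the 4 groups (x axis), with digits for the sample numbers and the mean and SD beside each group. SP samples 1 and 4 lie below SP samples 2, 3, and 5 for COL9A3, SNCG, CPNE5, FEZF1, and GFAP, but not for SPEF2.

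Comparisons between LP days were not used by the lists, although the LP samples entered them, so that a listed member that is high at LP day 28 is not an independent choice here. From LP day 1 to LP day 28, 2 of 38 members tested were DE, NTN4 and CNTN1, against 0.216% of all genes in either direction, 0.175% higher and 0.0405% lower. NTN4 rose from 11.4 ± 3.04 to 22.0 ± 3.74 CPM (SD, n = 6 each), without overlap, with a log2 fold change of 1.01 ± 0.19 (SE, edgeR FDR 0.0271), higher in 6 of 6 samples. CNTN1 rose from 178 ± 36.3 to 309 ± 87.1 CPM (SD, n = 6 each), with a log2 fold change of 0.79 ± 0.16 (SE, edgeR FDR 0.0442). Both calls were lost without LP day 1 sample 3 or 6, or LP day 28 sample 1 or 6. NTN4 also lost its call without LP day 1 sample 5 or LP day 28 sample 4, and CNTN1 without LP day 1 sample 1, 4, or 5 or LP day 28 sample 2. With LP day 1 samples 3 and 4 summed as 1 sample, NTN4 alone was called. With both left out, neither gene was called. With a sample left out, the FDR ranged from 0.0170 to 0.0974 for NTN4 and from 0.0121 to 0.135 for CNTN1 (edgeR). Over the other alternatives it ranged from 0.00138 to 0.1215 for NTN4 and from 6.36e-04 to 0.3025 for CNTN1.

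From LP day 1 to LP day 7, 0 of 38 members were DE by edgeR's quasi-likelihood test, against 0.0201% of all genes, and 10 had an unadjusted p under 0.05, against 5.56%. DESeq2 called 2 (CNTN1 and NOV), the exact tests 3 and 4, and limma with voom 0. PLXNA4 was the only member whose groups did not overlap, against 0.269% of all genes. From LP day 7 to LP day 28, 0 of 39 members were DE, against 0.00672% of all genes, and 11 had an unadjusted p under 0.05, against 7.13%. DESeq2 called 1 (PLXNA4), the exact tests 1 and 4, and limma with voom 0. The groups did not overlap for NTN4, which was higher at LP day 28 (log2 fold change 0.62 ± 0.15 SE, edgeR FDR 0.244), and for PLXNA4, which was lower, against 0.363% of all genes. GLUL differed by -0.48 ± 0.13 (SE, edgeR FDR 0.388) and CLDN11 by 0.66 ± 0.19 (SE, edgeR FDR 0.413) over the same interval.

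Members from experiment 4 alone gave 0 DE genes in any of the comparisons of groups. At an unadjusted p under 0.05 5 of 18 passed against SPs for LP day 28, 4 of 18 for LP day 7, and 1 of 17 for LP day 1. Of all genes, 13.8%, 14.4%, and 3.33% did. The FDR of these members at LP day 28 was lowest for NYAP1 (0.0922, edgeR), and at LP day 7 for PLXNA4 (0.0563, edgeR) and FMR1 (0.0874, edgeR). DESeq2 called PLXNA4 and FMR1 at LP day 7 and NYAP1 at LP day 28.

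The samples carry numbers in their titles, and the labels do not say what these stand for. Within LP days 7 and 28, even and odd numbers were compared because earlier results of these data showed clock genes that differ in this way. EYA3, a member of the PT thyrotroph list, had 123 to 969 CPM in the odd samples and 30.9 to 58.5 CPM in the even samples of these days, and the melatonin receptor gene MTNR1A 14.5 to 41.5 CPM and 0.537 to 7.02 CPM. Of 39 members tested, 2 were DE, against 1.02% of all genes in either direction, 0.302% higher and 0.719% lower in even samples, and 9 had an unadjusted p under 0.05, against 10.1%. TRPC7 had 8.99, 5.41, and 5.86 CPM in LP day 7 samples 1, 3, and 5 and 15.7, 22.0, and 16.1 CPM in samples 2, 4, and 6. At LP day 28 the odd samples had 8.09, 4.26, and 3.39 CPM and the even samples 13.35, 16.15, and 17.9 CPM. TRPC7 was thus higher in every even sample than in every odd sample, with a log2 fold change of 1.46 ± 0.21 (SE, edgeR FDR 0.00136, LP day in the model).

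NFASC went the other way. It had 151, 129, and 160 CPM in odd and 95.3, 101, and 84.4 CPM in even samples at LP day 7, and 152, 126, and 119 CPM in odd and 95.8, 96.9, and 111 CPM in even samples at LP day 28. Even samples differed from odd ones by a log2 fold change of -0.52 ± 0.09 (SE, edgeR FDR 0.00717), and -0.65 and -0.39 within LP days 7 and 28. For TRPC7 the values within these days were 1.41 and 1.51. Groups did not overlap for these 2 members, against 1.33% of all genes. Both calls held with each sample left out. With counts scaled by library size alone, TRPC7 kept its call and NFASC did not (edgeR FDR 0.0530), and the common exact test also left NFASC out (edgeR FDR 0.0501).
On SPs, samples 1 and 3 had 17.2 and 19.9 CPM of MTNR1A and 3.97 and 3.46 CPM of TRPC7, and samples 2, 4, and 5 had 1.02, 1.95, and 2.54 CPM of MTNR1A and 27.1, 10.4, and 25.1 CPM of TRPC7. LP day 1 samples 1 and 6 had the most MTNR1A (12.3 and 13.2 CPM) and 4.01 and 12.2 CPM of TRPC7, while the other 4 had 0 to 4.01 CPM of MTNR1A and 7.497 to 32.6 CPM of TRPC7. With parity as a covariate, CNTN1, CNTN2, NFASC, NGFR, SPTB, and SPEF2 remained DE at LP day 28 against SPs, joined by PRDM8. That covariate counts SP sample 5 as odd, although its MTNR1A level was like those of samples 2 and 4. It thus cannot account for this pattern on SPs.

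**Figure D5:**
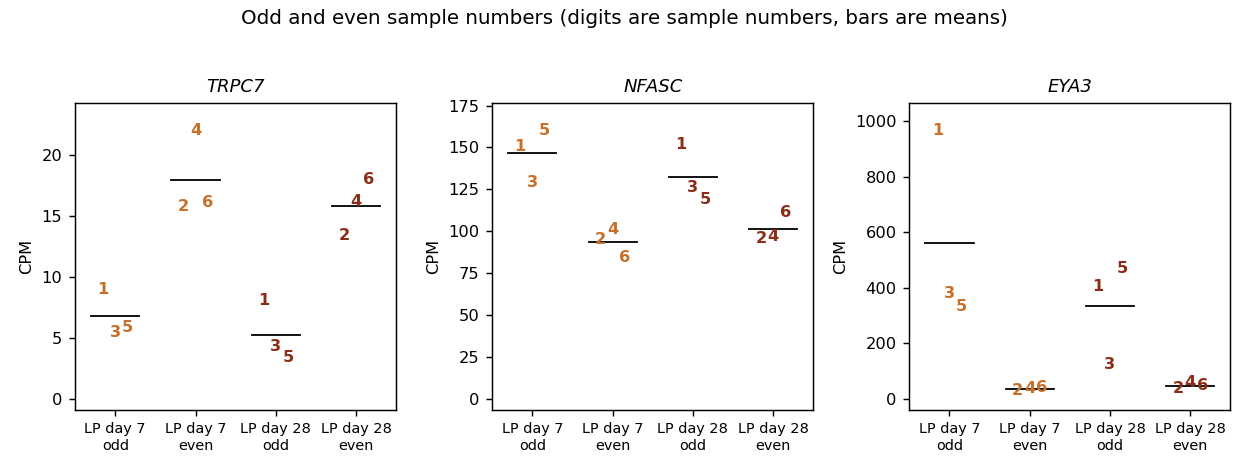
CPM (y axis) of TRPC7, NFASC, and EYA3 in samples of LP days 7 and 28 with odd and even numbers (x axis), with digits for the sample numbers and bars for the means. All even samples are above all odd samples for TRPC7, and all are below them for NFASC and EYA3.

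Other genes of the same pathways were taken from lists of known components, of which only genes with a paired identifier could be tested. Identifiers were paired through the study's tables of DE genes, so each gene tested here was already in those tables. Counts for them are a description, and the shares of all genes beside them are not a neutral background. Among axon guidance ligands 3 of 39 were paired, among guidance receptors 4 of 33, among contactins, L1-family proteins, and their partners 6 of 21, among neurofilaments and the neuronal cytoskeleton 5 of 15, among proteins of vesicle release 3 of 20, among neurotrophins and their receptors 3 of 8, and among proteins of the motile cilium 7 of 25. The 4 paired genes of synaptic adhesion, of 18, were all members. Outside the members this left 15 genes. In each of the 6 comparisons of groups, 0 of them were DE by edgeR's quasi-likelihood test in either direction, and 13 of the 90 tests had an unadjusted p under 0.05. Against SPs these were 1, 2, and 4 of 15 genes at LP days 1, 7, and 28, where all genes gave 3.33%, 14.4%, and 13.8%. Between LP days they were 1 of 15 (days 1 and 7), 0 of 15 (days 7 and 28), and 5 of 15 (days 1 and 28), where all genes gave 5.56%, 7.13%, and, for days 1 and 28, 1185 of 14820 genes.
L1CAM and CNTNAP1, which like CNTN1, CNTN2, and NFASC serve axon adhesion, had log2 fold changes at LP day 28 of -0.17 (edgeR FDR 0.532) and -0.09 (edgeR FDR 0.940). NTRK2, the receptor of BDNF, was closest to the threshold at LP day 7 (log2 fold change 1.17 ± 0.26 SE, edgeR FDR 0.0665). TEKT1, a protein of the ciliary axoneme, had a log2 fold change at LP day 28 of -0.86 ± 0.23 (SE, edgeR FDR 0.0957), and STMN2 of the neuronal cytoskeleton one of -0.56 ± 0.23 (SE, edgeR FDR 0.273).

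Variation between samples of a group was larger for the members than for most genes. The median biological coefficient of variation was 0.27 over the 40 members and 0.20 over 15653 genes. It was highest for PVALB (0.99), FEZF1 (0.85), TRPC7 (0.57), and PRSS12 (0.53), and lowest for SRCIN1, PRX, FMR1, and PLXNA4. Among genes of like expression, TRPC7 stood at percentile 98.3, COL9A3 at 98.7, and NOV at 97.4, whereas PLXNA4 stood at 6.07.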

How the data were processed

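The files hold raw read counts per Ensembl sheep gene (Oar_v3.1), deposited by the authors for each of the 23 samples. Bowtie and HTSeq are named in the submitters' processing notes, without versions, and the strand setting is not given in the sources used here, so reads of overlapping and antisense genes may not be separated. Gene symbols came from the study's tables of DE genes, which pair 1259 genes, and no member shares its symbol with another identifier. Pathway and marker genes could thus be used only where those tables hold them. No sequences or coordinates are given, because no genome of this build was used here. The members, pathway lists, and marker lists were chosen with earlier results of these data known.

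For each pair of groups, genes were kept if they exceeded 1 CPM in a number of samples equal to the size of the smaller group or more, and tested with edgeR 4.0.16 (R 4.3.3), using TMM scaling and the quasi-likelihood test, and FDR was controlled over all genes tested at 0.05. Standard errors were the absolute log2 fold change over the square root of F. CPM values in the text were scaled by TMM over all 23 samples. Members were described in full where they were called in any comparison, where SP and LP day 28 samples did not overlap, or where they had 1 of the 3 largest log2 fold changes in a direction, and by ranges otherwise. On simulated counts made from SPs and LP day 28 (14922 genes), the test recovered 19.7%, 67.2%, and 98.5% of genes changed 1.5-, 2-, and 4-fold, and 9.63% of its calls were false. For LP days 1 and 28 (14804 genes) it recovered 24.2%, 64.2%, and 95.4%, with 3.20% false. The changed genes were drawn from all genes tested, and each gene was simulated on its own, without differences shared by many genes of a sample. Members varied more than most genes (median coefficient of variation 0.27 against 0.20), so recovery may be lower for them.

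Alternatives were DESeq2 1.42.0, edgeR's exact tests, limma 3.58.1 with voom, other scaling and filters, all groups in 1 fit, covariates for parity and GH1, a replicate block, SP samples 2, 3, and 5 alone, and each sample left out. The exact test with a common dispersion on SP samples 2, 3, and 5, SP samples 1 and 4 alone, and LP day 1 without samples 3 and 4 were added after seeing the data. The study's own fold changes and p-values were not used.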

Additional observations from a re-analysis of the deposited data

Results flagged for a closer look

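Single samples that stood apart within their group were sought by Dixon's test over 160 group values of the members, and 14 were found. The test gives about 1 in 20 by chance for independent, normally distributed values. CPM values here were not transformed and the genes share their samples, so the 14 cannot be read against that rate. No explanation was tested for them.

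Higher than the rest of their group were CLDN11 in LP day 7 sample 4 (46.18 CPM, next 30.27 CPM), NOV in LP day 28 sample 2 (51.34 CPM, next 35.47 CPM), and NLGN3 in LP day 28 sample 1 (64.93 CPM, next 54.23 CPM). For NTN4, SP sample 1 stood at 18.81 CPM (next 11.83 CPM) and LP day 28 sample 4 at 29.61 CPM (next 21.05 CPM). SPEF2 in LP day 7 sample 3 had 52.04 CPM (next 33.09 CPM). In LP day 1 sample 2, RSPH4A had 20.62 CPM (next 12.49 CPM) and SPTB had 78.41 CPM (next 51.71 CPM).

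Lower than the rest were NYAP1 in LP day 28 sample 2 (49.28 CPM, next 69.38 CPM) and SNCG in LP day 7 sample 5 (3.819 CPM, next 8.70 CPM). The other 4 rested on 10 counts or fewer. These were DCC in LP day 1 sample 6 (3.043 CPM), FEZF1 in LP day 28 sample 4 (2.692 CPM), PVALB in LP day 7 sample 6 (3.43 CPM), and PVALB in LP day 28 sample 1 (1.155 CPM).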

How the results depend on the processing

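No difference called by the quasi-likelihood test with all samples changed its sign under the alternatives run. Some called only by an exact test did: against SP samples 1 and 4, SNCG at LP day 28 went from -1.34 to 0.09 and COL9A3 at LP day 7 from -1.03 to 0.16 (log2 fold change), and NOV at LP day 7 and FEZF1, CPNE5, SLITRK1, and TRPC7 at LP day 28 also changed sign. The number of members called against SPs depended on the test. At LP day 7, where the quasi-likelihood test called 3, DESeq2 called 9, the exact tests 8 (a dispersion for each gene) and 10 (common), no filter and edgeR's own filter 5 each, all groups in 1 fit 6, the parity covariate 9, the GH1 covariate 6, SP samples 2, 3, and 5 alone 0, and the common-dispersion exact test on these 3 samples 11. At LP day 28, against 6, DESeq2 and both exact tests called 12 each, and the common-dispersion exact test on SP samples 2, 3, and 5 called 18. At LP day 1, against 0, the common-dispersion exact test called 1. Between LP days 1 and 7, against 0, DESeq2 called 2, the exact tests 3 and 4, and the fit of all groups 1. Between LP days 7 and 28, against 0, DESeq2 called 1 and the exact tests 1 and 4. Between LP days 1 and 28, against 2, the exact tests called 4 and 10, voom 1, library-size scaling 0, edgeR's own filter 1, LP day 1 samples 3 and 4 summed 1, and both left out 0. Between even and odd samples, against 2, DESeq2 called 4 and library-size scaling 1.

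With 1 sample left out, the counts ranged from 0 to 0 at LP day 1, 1 to 7 at LP day 7 (1 without SP sample 2 or 4, 7 without LP day 7 sample 6), and 4 to 7 at LP day 28 against SPs. They ranged from 0 to 1 between LP days 1 and 7, 0 to 0 between LP days 7 and 28, 0 to 5 between LP days 1 and 28 (5 without LP day 1 sample 2), and 2 to 3 between even and odd samples.

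Deviations of same-numbered samples had mean correlations of -0.0441 to 0.0792, with single pairs from -0.186 to 0.279. These values cannot settle whether sample numbers pair the samples. For LP days 7 and 28 the mean was 0.0236, although even and odd numbers differed there for some genes. SPs have no sample 6, and the replicate block fits against SPs left out LP sample 6. These fits called 7 members for LP day 7 and 3 for LP day 28. Dropping LP sample 6 alone, with no block, gave 7 and 4 calls. The higher count for LP day 7 thus cannot be credited to the block. No other count moved in the fits with the block. Members near the counting limit, such as DCC, PVALB, FEZF1, and PRSS12, could not show small differences at this depth.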
